A study of Mus musculus with 12 samples.

Results

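Solute carrier (Slc) genes were followed across mouse splenic dendritic cells. They were taken from the deposited table as the genes whose single symbol had the form Slc, family number, letter, member number, with 1 probe set standing for each gene, the one of highest average over the 12 arrays. The table held 146 such genes on 180 probe sets, of 8251 genes with 1 symbol. Of the 146 genes, 71 were above the detection floor on at least 2 arrays and were tested, and 33 were above it on all 12. Cells with high CD11c were sorted from spleen as CD4+, CD8+ or CD4- CD8- (double-negative, DN). RNA came from cells taken at isolation (fresh) or after 2 h in tissue culture medium at 37 °C (cultured), with 2 arrays in each of the 6 groups. The labels give no mouse strain, age or sex and no pooling of animals, and all 6 groups share the high CD11c gate. The 2 arrays of a group carry experiment numbers, but nothing says that they came from separate animals, so the spread behind each p-value is that between arrays and may be purely technical.

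Slc proteins carry solutes across membranes without themselves burning ATP, as uniporters, as exchangers, or by using the gradient of sodium, protons or another ion. They serve the plasma membrane, mitochondria, lysosomes, the Golgi apparatus and the endoplasmic reticulum. In dendritic cells and other phagocytes they are known for feeding amino acids and glucose into activated cells, for supplying cystine for glutathione, and for moving metals out of the phagosome.

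Values are Average Difference intensities, the authors' globally scaled measure of a probe set, and the level of 1 gene's probe set says nothing about another's. The detection floor was an intensity of 91.4. Differences are on a generalised log2 scale that stays defined below 0, tested by limma over the 6159 probe sets that exceeded the floor on 2 or more arrays, and a gene is called where the Benjamini-Hochberg adjusted p over all of them was under 0.05. Where a group was below the floor on both arrays, its fall or rise is given as at least N-fold, computed with that group's values raised to the floor and those of the other groups as measured. In these bulk samples, fewer cells of a type and less RNA per cell cannot be told apart. The root mean square of values below 0, a measure of noise, was 26.2 to 50.5 on fresh arrays and 42.3 to 108 on cultured ones. It was highest on replicate 1 of cultured CD4+ cells, at 108, above the floor itself, and was 82.5 on replicate 1 of cultured DN cells. Values just above the floor on these arrays may therefore be noise. They had 61 and 59 Slc genes above the floor, against 50 to 56 on the other arrays. Values below 0 made up 19.7% to 22.0% of all on fresh arrays and 22.2% to 26.5% on cultured ones, with no overlap. The part of this difference in the falls of dim genes after culture was not tested. The ratio of 3' to 5' Gapdh control probe sets was 2.55 on replicate 1 of fresh CD8+ cells, 1.97 on replicate 1 of cultured CD4+ cells and 1.34 on replicate 1 of cultured DN cells, against 0.89 to 1.04 on the other arrays. One description calls replicate 1 of fresh CD8+ cells CD4 positive, while its title says CD8+, and its Cd8a intensity was 1210. Cd8a was 679 to 1675 on the 4 CD8+ arrays and -17.9 to 36.1 on the others, and Itgax, which encodes CD11c, was above the floor on all 12. Cd4 was 617 and 613 in fresh CD4+ cells and 271 and 112 in cultured ones.

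Detection differed between substrate classes, which were assigned by Slc family. Of 20 genes classed as mitochondrial carriers, 15 were tested and 11 were above the floor on all arrays. The 15 include Slc25a17, a peroxisomal carrier of the same family. Of 16 metal transporter genes, 11 were tested, and of 20 amino acid transporter genes 8. Only 5 of 20 genes for organic ions, bile acids and fatty acids were tested, and 0 of 3 for monocarboxylates. The other classes had 7 of 12 tested for neurotransmitters, taurine and creatine, 6 of 9 for vitamins, choline, urea and heme, 5 of 11 for sugars and polyols, 4 of 11 for nucleotide sugars and acetyl-CoA, 4 of 7 for cation-chloride and calcium exchange and 3 of 10 for bicarbonate, protons and inorganic anions. Phosphate and nucleoside transport had 1 tested gene each, of 3 and 2, and the only peptide transporter gene, Slc15a2, was below the floor on all arrays. Among all genes 57.3% were represented by a tested probe set, and among Slc genes 48.6%. Of the 75 Slc genes not tested, 66 were above the floor on no array and 9 on 1. They included Slc2a1, which encodes the widely expressed glucose transporter, Slc16a1, a lactate and pyruvate transporter, and Slc7a1 and Slc7a2, which encode arginine transporters. Slc7a2 was above the floor on 1 array, at 98.4. Slc4a1, the anion exchanger of red cells, was below the floor on all 12 arrays.

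**Figure D1:**
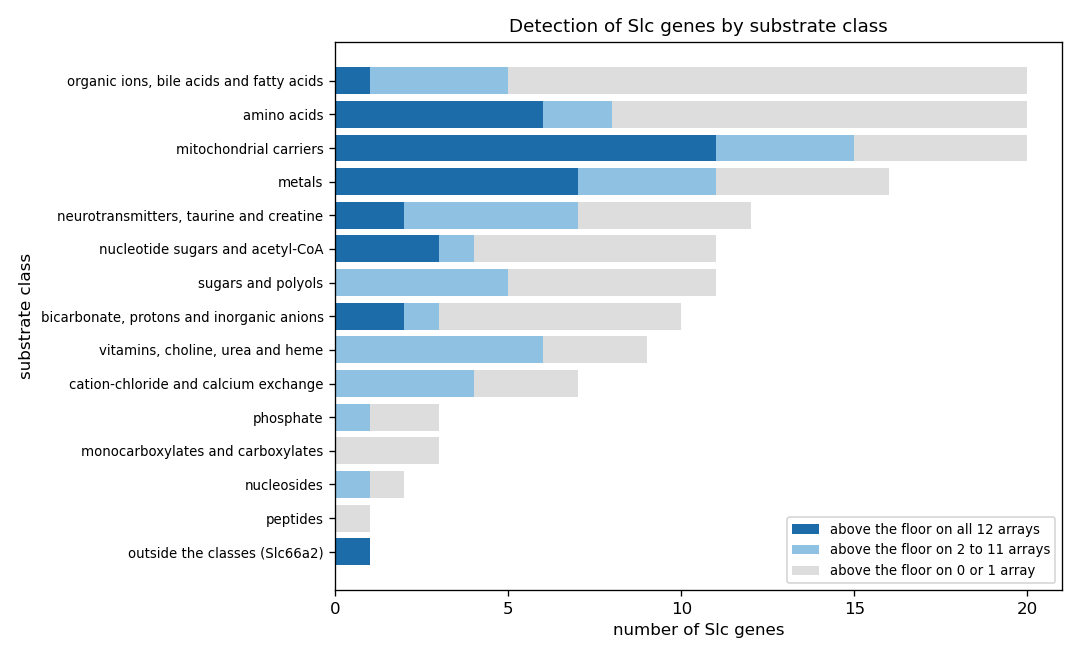
Number of Slc genes in each substrate class (vertical axis) that were above the detection floor on all 12 arrays, on 2 to 11 or on 0 or 1. Mitochondrial carriers had 15 of 20 genes above the floor on at least 2 arrays, and organic ion, bile acid and fatty acid carriers 5 of 20.

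The mean effect of culture over the 3 subsets asked which transporters changed after isolation on average. A call on this mean does not show a change in every subset. Of the 71 genes, 11 rose and 15 fell. In all, 39.3% of tested probe sets were called in this comparison (17% higher and 22.3% lower), and 36.6% of the Slc genes, so their share was near the background. The counts by substrate class below rest on few genes each and are to be set beside these shares. The median difference was -0.03 for Slc genes and -0.02 for all probe sets, and the median absolute difference 0.53 and 0.59. Fresh and cultured arrays did not overlap for 8 Slc genes, where 17.8% of all probe sets did not. Without the 3 arrays of high Gapdh ratio, 13 rose and 17 fell, together 42.3%, where 42.9% of all probe sets were called.

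In the amino acid class, Slc3a2 and Slc7a11 rose and Slc7a7 fell, of 8 tested. Of all tested probe sets, 17% were called higher and 22.3% lower. Slc3a2 encodes the heavy chain of CD98, the subunit that brings several light chains to the cell surface. Its intensity was 909 and 839 in fresh CD4+, 1065 and 1319 in fresh CD8+ and 1145 and 1044 in fresh DN cells. In culture it was 3212 and 3005, 2492 and 2972, and 2054 and 2923 in the same order of subsets. Every cultured array lay above every fresh one. The log2 difference was 1.40 ± 0.15 (SE; limma, adjusted p = 4.75e-05), a 2.63-fold rise in 6 of 6 pairs of the same subset and experiment. The rise was called in each subset, with log2 differences of 1.83 in CD4+, 1.20 in CD8+ and 1.16 in DN cells (adjusted p = 0.00125, 0.0163 and 0.017). The difference between the CD8+ and CD4+ rises was not called (log2 -0.63 ± 0.36, adjusted p = 0.632).

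Light chains that pair with this subunit did not all move with it. Slc7a5, which carries large neutral amino acids, was 117 to 267 on fresh arrays (median 154) and 102 to 236 on cultured ones (median 120.2), which overlapped. Its difference of -0.24 was not called (adjusted p = 0.477). Slc7a11 encodes the cystine and glutamate exchanger that feeds glutathione synthesis. It was -0.4 to 12.9 on the 6 fresh arrays, far below the floor, and -6.8 to 215 on the cultured ones, of which 2 were above it (215 on replicate 2 of CD4+ and 91.4 on replicate 2 of CD8+ cells). It was higher after culture in 5 of 6 pairs (adjusted p = 0.0253). The rise in CD4+ cells was at least 1.40-fold but not called by itself (adjusted p = 0.0647). The mean call did not hold when fresh CD4+ replicate 1 (adjusted p = 0.052) or 2 (0.0615), fresh DN replicate 2 (0.0619), cultured CD8+ replicate 2 (0.071) or cultured DN replicate 1 (0.0684) was dropped. Slc7a7, which exchanges cationic for neutral amino acids, was -2.3 to 163 on fresh and -119 to 84.5 on cultured arrays. All 6 cultured values were below the floor and 5 fresh ones above it, a fall of at least 1.07-fold on average (adjusted p = 0.0166, lower in 6 of 6 pairs). Dropping replicate 2 of fresh CD8+ (0.0527) or of fresh DN cells (0.0516) ended that call.

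The remaining tested genes of the amino acid class were not called. Slc6 genes, some of which carry amino acids, were classed with neurotransmitters, taurine and creatine and are given below. Slc1a5, a glutamine and neutral amino acid transporter, went from a median of 226 to one of 324 (log2 0.38, adjusted p = 0.164). Slc38a2, a sodium-coupled carrier of small neutral amino acids, was 223 to 515 fresh and 199 to 440.4 cultured (log2 -0.41, adjusted p = 0.0984, but 0.016 without cultured CD4+ replicate 2). Slc38a5, a related carrier of glutamine, was 135 to 283 fresh and 232 to 603 cultured (log2 0.73, adjusted p = 0.0566). It passed with the experiment number as a block (0.013), under quantile normalization (0.0379), and when cultured CD4+ replicate 2 (0.0073), fresh CD8+ replicate 1 (0.0258) or all 3 high-ratio arrays (0.0355) were dropped. Slc38a10 had a log2 difference of -0.45 (adjusted p = 0.144).

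The promoters of Slc3a2 and Slc7a11 are shown because both genes were called higher after culture and belong to 1 transporter. Those of Slc25a20 and Slc11a1 are shown further on. RefSeq promoters of 57 of the 71 tested genes were matched by symbol. Each runs from 250 bases before to 50 after the start site, 5′ to 3′ on the gene's strand, in GRCm38.p6. Capitals mark matches on either strand to an E-box (CACGTG), the core of the antioxidant response element (TGACNNNGC), the core of the amino acid response element (TGATGNAA), a GC box (GGGCGG) or a site of the PU.1 type (GAGGAA). Matches to different motifs did not overlap in these promoters. The 2 lines give chr19:8713848-8714147 (minus strand) and chr3:50443564-50443863 (minus strand).
Slc3a2: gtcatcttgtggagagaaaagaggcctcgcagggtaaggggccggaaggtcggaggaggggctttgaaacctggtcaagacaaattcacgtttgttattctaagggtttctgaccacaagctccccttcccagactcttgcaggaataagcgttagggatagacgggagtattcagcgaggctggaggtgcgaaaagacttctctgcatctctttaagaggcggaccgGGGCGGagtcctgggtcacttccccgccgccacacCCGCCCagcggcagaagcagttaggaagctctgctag
Slc7a11: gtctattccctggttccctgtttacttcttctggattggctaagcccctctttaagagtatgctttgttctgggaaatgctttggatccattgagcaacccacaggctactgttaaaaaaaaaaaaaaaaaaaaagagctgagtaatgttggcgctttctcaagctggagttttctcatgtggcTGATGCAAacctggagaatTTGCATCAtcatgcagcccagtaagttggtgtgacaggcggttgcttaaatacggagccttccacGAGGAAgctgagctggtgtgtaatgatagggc
The Slc7a11 promoter held 2 amino acid response element cores, which begin at -66 and, on the opposite strand, at -47 from the start site. That motif was in 3.97% of 32851 promoters of this length and in those of 4 of the 57 Slc genes. The Slc3a2 promoter held 2 GC boxes, a motif found in 35.7% of all promoters and in those of 48 of the 57 Slc genes. The E-box was in 7.15%, the antioxidant core in 12.4% and the PU.1-type site in 28.3% of all promoters, and in those of 8, 14 and 14 Slc genes. The Slc counts are of tested genes, each counted if any of its promoters matched. The percentages are of all promoters, so the counts and percentages cannot be compared directly. A match is a string of letters and not a binding site.

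**Figure D2:**
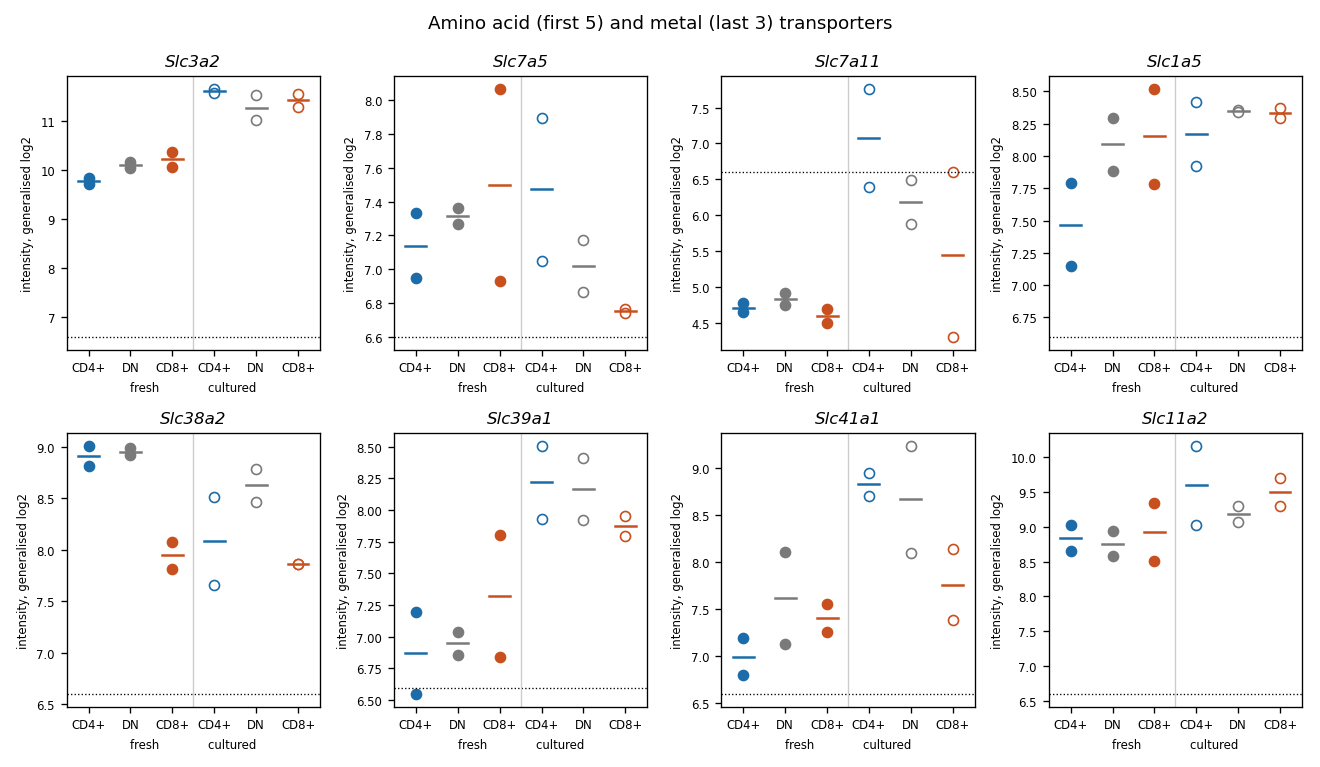
Intensity on the generalised log2 scale (vertical axis) of 5 amino acid and 3 metal transporter genes in each group (horizontal axis). Circles are arrays, filled for fresh and open for cultured cells, short lines are the mean of 2 arrays, and the dotted line is the detection floor. Slc3a2 was higher on every cultured array than on every fresh one, while Slc7a5 overlapped.

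Of 11 tested metal transporters, Slc39a1 and Slc41a1 rose and 0 fell, where 17% of all tested probe sets rose and 22.3% fell. Slc39a1, a zinc importer of the plasma membrane, was 87.7 to 222 on fresh arrays (median 119) and 219 to 363 on cultured ones (median 244). Its values overlapped only at the highest fresh array, replicate 1 of CD8+ cells, and the log2 difference was 1.04 ± 0.24 (adjusted p = 0.00601, higher in 5 of 6 pairs). Slc41a1, a magnesium transporter, was 107 to 274 fresh and 164 to 605 cultured, with a log2 difference of 1.08 ± 0.27 (adjusted p = 0.00877, 6 of 6 pairs). Its rise was called in CD4+ cells (log2 1.84, adjusted p = 0.0207), not in DN (1.05, 0.173) or CD8+ cells (0.35, 0.701). The test of the difference between the CD8+ and CD4+ rises gave adjusted p = 0.586.

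Several metal genes were not called, some of them near the threshold. Slc11a2, an importer of iron and other divalent metals, was 361 to 645 fresh and 518 to 1146 cultured (log2 0.59 ± 0.23, adjusted p = 0.0681). With the experiment number as a block it passed (0.0141), as it did without fresh CD8+ replicate 1 (0.0325) or cultured CD4+ replicate 2 (0.00965). Slc30a3, a zinc transporter of vesicles, was 223 to 463 fresh and 383 to 1075 cultured (log2 0.74, adjusted p = 0.0509; 0.00833 with the block, 0.0312 without fresh CD8+ replicate 1, 0.0494 without fresh DN replicate 1, 0.00438 without cultured CD4+ replicate 2). Slc39a7, which releases zinc from the endoplasmic reticulum, was 263 to 409 fresh and 172 to 337 cultured (log2 -0.49, adjusted p = 0.0527; 0.0297 with the block, 0.0232 without fresh CD8+ replicate 1, 0.0421 without cultured DN replicate 2). Slc39a4, a zinc importer, had a log2 difference of 0.75 (adjusted p = 0.0951) and Slc31a1, a copper importer, of 0.26 (adjusted p = 0.382; 0.0398 without the 3 arrays of high Gapdh ratio).

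Mitochondrial carriers had 2 genes that rose and 5 that fell among 15, where 17% of all tested probe sets rose and 22.3% fell. Slc25a20 encodes the carrier that brings acylcarnitines, and so fatty acids, into the mitochondrial matrix. It was 301 and 286 in fresh CD4+, 441 and 568 in fresh CD8+ and 344 and 209 in fresh DN cells, and 504 and 628, 1960 and 2521, and 855 and 753 after culture. Within each subset both cultured arrays lay above both fresh ones, and cultured CD8+ cells were the highest group. The log2 difference was 1.55 ± 0.18 (adjusted p = 8.39e-05, 6 of 6 pairs). It was 2.15 in CD8+ (adjusted p = 0.00205), 1.57 in DN (0.0103) and 0.93 in CD4+ cells (0.0555). The CD8+ rise exceeded the CD4+ rise by 1.21 ± 0.43, which was not called (adjusted p = 0.549, unadjusted p = 0.017 from limma). Slc25a51, a carrier of NAD, rose from 116 to 136 on fresh arrays to 179 to 299 on cultured ones, with no overlap (log2 0.90 ± 0.18, adjusted p = 0.00295). Its probe set is of a type that can take signal from related sequences, and its other tested probe set also rose (at least 1.37-fold, adjusted p = 0.0015).

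The 5 carriers that fell serve different substrates. Slc25a11, which exchanges oxoglutarate for malate, was 634 to 901 fresh and 241 to 521 cultured, with no overlap (log2 -1.05 ± 0.21, adjusted p = 0.00292). Slc25a39, a carrier of glutathione, was 344 to 546 fresh and 153 to 337 cultured, also with no overlap (log2 -1.01 ± 0.18, adjusted p = 0.0014). Slc25a4, 1 of the exchangers of ADP and ATP, fell by 0.79 ± 0.18 on the log2 scale (987 to 1635 fresh, 465 to 996 cultured, adjusted p = 0.00503). The other exchanger measured, Slc25a5, was 1194 to 1922 fresh and 801 to 2042 cultured and was not called (log2 -0.06 ± 0.22, adjusted p = 0.837). Slc25a25, which exchanges ATP-magnesium for phosphate, was 24.4 to 219.7 fresh and below 0 on every cultured array. It fell by at least 1.06-fold (adjusted p = 0.000624), since 3 of its fresh values were themselves below the floor. Slc25a17, counted here by its family, is a carrier of cofactors in peroxisomes and not in mitochondria. It had a log2 difference of -0.74 (adjusted p = 0.0321). Leaving out any 1 of 8 arrays ended that call, namely both fresh CD4+ (0.066 and 0.0766), both fresh CD8+ (0.0531 and 0.0551) and both fresh DN arrays (0.0704 and 0.0657), cultured CD8+ replicate 2 (0.0859) and cultured DN replicate 2 (0.0743). Slc25a1, the citrate carrier, and Slc25a28, which brings iron to mitochondria, were not called (log2 0.17 and -0.52, adjusted p = 0.428 and 0.102).

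The Slc25a20 promoter is shown beside these values as that of a carrier that rose (chr9:108661886-108662185, plus strand).
Slc25a20: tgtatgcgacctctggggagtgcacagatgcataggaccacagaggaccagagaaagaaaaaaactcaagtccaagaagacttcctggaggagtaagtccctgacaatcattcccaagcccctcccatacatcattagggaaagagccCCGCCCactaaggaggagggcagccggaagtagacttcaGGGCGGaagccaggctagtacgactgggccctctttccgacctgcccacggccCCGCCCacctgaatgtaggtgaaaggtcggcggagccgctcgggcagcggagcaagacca
It held 3 GC boxes, which begin at -102, -63 and -10 from the start site, and 0 matches to the other 4 motifs.

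All 3 called sugar transporters fell, of 5 tested, where 22.3% of all tested probe sets fell and 17% rose. Slc2a3, which encodes a glucose transporter of high affinity, was 335 and 513 in fresh CD4+, 55 and 94 in fresh CD8+ and 218 and 312 in fresh DN cells. After culture it was 96.6 and 113, 30.8 and 40.5, and 94.8 and 52.5 in the same order. It was lower in 6 of 6 pairs, by at least 2.19-fold (adjusted p = 0.000878). Its fall was called in CD4+ (log2 -1.93, adjusted p = 0.0108) and DN cells (-1.75, 0.0245) and not in CD8+ cells (0.313), where 1 fresh array was already below the floor. Slc37a4, the glucose 6-phosphate transporter of the endoplasmic reticulum, was 83.4 to 127 fresh and -12.2 to 46.1 cultured, a fall of at least 1.16-fold (adjusted p = 0.00272). Slc50a1, a sugar carrier of the Golgi apparatus, fell by 0.68 on the log2 scale (129 to 272 fresh, 79.1 to 166 cultured, adjusted p = 0.0317). It was no longer called after dropping either fresh CD4+ array (0.0896 and 0.0581), replicate 1 of fresh CD8+ (0.0515) or fresh DN cells (0.0897), replicate 2 of cultured CD8+ cells (0.0822) or either cultured DN array (0.0566 and 0.0656). Slc2a8 and Slc2a5, members of the same family as Slc2a3, had log2 differences of -0.28 and 0.25 (adjusted p = 0.426 and 0.485).

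Among ion exchangers, Slc12a2 and Slc8a1 fell, of 4 tested, where 22.3% of all tested probe sets fell. Slc12a2, which takes up sodium, potassium and chloride together, was 563 and 781 in fresh CD4+, 282 and 143 in fresh CD8+ and 503 and 653 in fresh DN cells, and 196 and 249.9, 40.9 and 92, and 151 and 144 after culture. Every cultured array lay below both fresh arrays of its own subset (log2 -1.68 ± 0.24, adjusted p = 0.000396). Slc8a1, which exchanges sodium for calcium, was 224 to 361 fresh and 59.6 to 97.2 cultured, with no overlap, and fell by at least 3.13-fold (adjusted p = 0.000167). The fall was called in each subset (adjusted p = 0.0141 in CD4+, 0.00915 in CD8+ and 0.026 in DN cells). Of the bicarbonate and proton transporters, Slc9a8, Slc4a2 and Slc4a3 were tested and 0 were called (log2 0.33 and 0.04 for Slc9a8 and Slc4a2). Slc4a3 was 9.6 to 65.3 fresh and -10.7 to 136 cultured (adjusted p = 0.465; 0.0477 without cultured CD4+ replicate 2).

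Slc29a1, the equilibrative nucleoside transporter, was 75.4 to 589 on fresh arrays (median 496) and 52.4 to 154 on cultured ones (median 127). It fell by 1.63 ± 0.31 on the log2 scale (adjusted p = 0.00195, lower in 5 of 6 pairs). The falls in CD4+ (-1.92, 0.0294) and DN cells (-2.33, 0.0208) were called. In fresh CD8+ cells it was 75.4 and 251, so replicate 1 was already below the floor. The difference between the DN and CD8+ falls, 1.69 ± 0.75, was not called (adjusted p = 0.998).

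Golgi and other nucleotide sugar carriers moved in both directions. Slc35c2, linked to the supply of fucose for Notch receptors, was 244 to 832 fresh and 108 to 460.3 cultured (log2 -1.67 ± 0.33, adjusted p = 0.00269). Slc35b2, which brings activated sulfate into the Golgi apparatus, rose by 0.63 ± 0.17 (169 to 231 fresh, 204 to 426 cultured, adjusted p = 0.0135, higher in 6 of 6 pairs). Slc35b1, a carrier of the endoplasmic reticulum, and Slc35e1 had log2 differences of -0.12 and -0.15 (adjusted p = 0.71 and 0.7).

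Vitamin and choline transporters had 2 genes that rose and 1 that fell, of 6, where 17% of all tested probe sets rose and 22.3% fell. Slc44a2, a choline transporter-like protein, was 94.9 to 558 fresh and 32.8 to 193 cultured (at least 2.16-fold lower, adjusted p = 0.0035, 6 of 6 pairs). Its relative Slc44a4 was 43.5 to 156 fresh and 146 to 329.5 cultured (log2 1.04, adjusted p = 0.0209). Dropping replicate 2 of fresh CD4+ (0.0604), fresh CD8+ (0.0507), fresh DN (0.0674) or cultured CD8+ cells (0.0535), or replicate 1 of cultured DN cells (0.0563), ended that call. Slc23a3, of the ascorbate transporter family, was 32.2 to 76.7 fresh and 93.8 to 377 cultured, with no overlap (at least 1.81-fold higher, adjusted p = 0.00273). The other probe set tested for it gave no call (adjusted p = 0.808). Slc44a1, a further choline transporter, had a log2 difference of -0.57 (adjusted p = 0.0921; 0.0255 without fresh CD8+ replicate 2), and Slc23a2, an ascorbate transporter, of 0.25 (adjusted p = 0.402).

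Single genes of other classes had weaker calls. Slc20a1, a phosphate transporter, was 45.9 to 145 fresh and -57.7 to 79.9 cultured (adjusted p = 0.0382). Its call ended without fresh CD4+ (0.113), CD8+ (0.101) or DN replicate 2 (0.113), cultured CD4+ replicate 1 (0.059), cultured CD8+ replicate 1 (0.0944) or 2 (0.055) or cultured DN replicate 1 (0.102). Slc22a12, a urate transporter, was 40.8 to 182 fresh and 93.3 to 249.3 cultured (log2 0.91, adjusted p = 0.0406). That rise was not called without fresh CD4+ (0.119), CD8+ (0.0958) or DN replicate 2 (0.121), nor without cultured CD4+ replicate 1 (0.079), CD8+ replicate 1 (0.119), DN replicate 1 (0.101) or DN replicate 2 (0.0534). Slc6a9, a glycine transporter, was -4.3 to 44.6 fresh and -11.9 to 173 cultured (adjusted p = 0.0446), and leaving out any 1 array other than fresh CD8+ replicate 2 or cultured CD4+ replicate 2 ended the call (0.0521 to 0.126). Without the 3 arrays of high Gapdh ratio, Slc22a12 and Slc6a9 had adjusted p = 0.0939 and 0.0928. Slc6a6, which carries taurine, was 395 to 551 fresh and 397 to 776 cultured (log2 0.26, adjusted p = 0.267), and its other tested probe set was called higher (log2 0.48, adjusted p = 0.0329). Slc6a13, a transporter of GABA and taurine, had a log2 difference of -0.52 (adjusted p = 0.079; 0.0339 with the block, 0.0216 without cultured CD4+ replicate 1). Slc6a12, a transporter of betaine and GABA, had a log2 difference of -0.19 (adjusted p = 0.744). Slc6a15, a transporter of neutral amino acids, was 18.3 to 119 fresh and 48.4 to 242 cultured (at least 1.35-fold higher, adjusted p = 0.224; 0.0466 without cultured CD4+ replicate 2). Slc10a1, a bile acid transporter, was 39.1 to 73 fresh and 13.3 to 178 cultured (adjusted p = 0.797), and Slc10a3, of the same family, had a log2 difference of 0.08 (adjusted p = 0.763). Slc66a2, a PQ-loop protein outside the substrate classes, had a log2 difference of -0.49 (adjusted p = 0.0672; 0.0334 with the block, 0.025 without fresh CD8+ replicate 1, 0.034 without cultured CD4+ replicate 2, 0.0464 without cultured DN replicate 2).

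**Figure D3:**
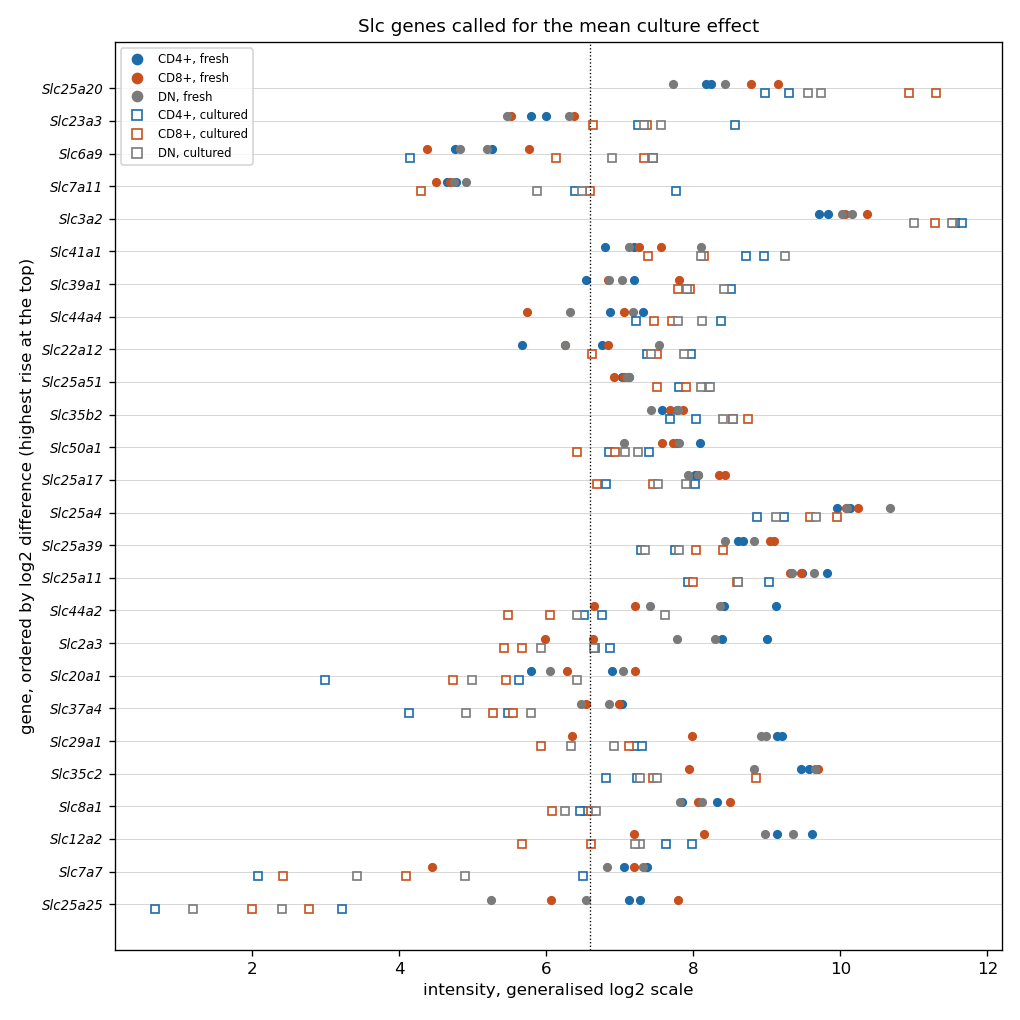
Intensity on the generalised log2 scale (horizontal axis) of the 26 Slc genes called for the mean culture effect, 1 gene per line, with fresh arrays as filled circles, cultured arrays as open squares and the floor as a dotted line. The 6 cultured values of Slc3a2 lie above its 6 fresh ones, and those of Slc8a1 lie below. All cultured values of Slc25a25 and Slc37a4 are below the floor.

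By subset, culture changed 15 Slc genes in CD4+ cells (4 higher, 11 lower), or 21.1%, where 18.4% of all probe sets were called (7.53% higher, 10.9% lower). It changed 5 in CD8+ cells (2 higher, 3 lower), or 7.04%, where 8.13% were called (4.01% and 4.12%), and 6 in DN cells (2 higher, 4 lower), or 8.45%, where 9.9% were called (4.21% and 5.7%). With the experiment number as a block, 24 genes were called in CD4+ and 11 in DN cells, where 29% and 16.9% of all probe sets were. Slc3a2 and Slc8a1 were called in all 3 subsets. Slc12a2 was also called in each, at log2 -1.57, -1.53 and -1.93 in CD4+, CD8+ and DN cells (adjusted p = 0.0258, 0.0478 and 0.0166). Of these 26 calls, those of Slc3a2 in CD4+ and Slc25a20 in CD8+ cells were kept under all 18 alternatives, and each of the other 24 was lost when some single array was left out. Without fresh CD4+ replicate 1 or 2, the CD4+ count was 2 and 1, and it was 7 and 27 without cultured CD4+ replicate 1 or 2, where 5.88%, 4.97%, 10.7% and 34.3% of all probe sets were called. The CD8+ count was 1, 1 and 2 without fresh CD8+ replicate 1 or cultured CD8+ replicate 1 or 2, where 4.58%, 2.11% and 3.6% of all probe sets were called. It was 3 without either fresh CD4+ or either fresh DN array (5.15% to 5.65% of all) and 8 without either cultured CD4+ array (12.5% and 12.3%). The DN count was 1, 0, 1 and 2 without fresh DN replicate 1 or 2 or cultured DN replicate 1 or 2 (3.21%, 1.46%, 2.4% and 7.34% of all), and 12 without either cultured CD4+ array (15.7% of all). No tested difference in culture response between subsets was called for any Slc gene or any other probe set (limma; 6, 2 and 1 Slc genes had an unadjusted p under 0.05 for CD8+ against CD4+, CD8+ against DN and DN against CD4+). Without cultured CD4+ replicate 2, 1 of 71 Slc genes (1.41%) was called for CD8+ against CD4+, where 2.63% of all probe sets were.

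The comparison of CD8+ with the mean of CD4+ and DN cells, averaged over fresh and cultured states, asked which transporters go with the CD8+ subset. Of the 71 genes, 3 were higher and 4 lower in CD8+ cells. In all, 6.22% of tested probe sets were called in this comparison (3.25% higher, 2.97% lower), and 9.86% of the Slc genes. The median Slc difference was 0.02 and that of all probe sets -0.04. The 4 CD8+ and 8 CD8-negative arrays did not overlap for 4 Slc genes, Slc11a1, Slc12a7, Slc12a4 and Slc39a6, and for 3.08% of all probe sets. Without the 3 arrays of high Gapdh ratio the counts were 6 higher and 5 lower, where 10.2% of all probe sets were called, and without cultured CD8+ replicate 1 or 2 the total was 4 in each case (3.39% and 3.13% of all).

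Slc11a1 encodes a transporter that pumps iron and manganese out of the phagosome and is known for setting resistance of mice to intracellular microbes. It was 534 and 781 in fresh CD8+ cells and 661 and 986 in cultured ones. In CD4+ cells it was 124 and 76.1 fresh and 84.5 and 65.3 cultured, and in DN cells 82.1 and 103 fresh and 74.8 and 99.4 cultured. The lowest CD8+ value was thus far above the highest of the other subsets, which lay around the floor. The CD8+ level was at least 7.44-fold that of the other subsets (adjusted p = 3.51e-05, higher in 8 of 8 pairs of the same state and experiment). Each CD8+ array enters such pairs with both CD4+ and DN cells, so the pairs here and below are not independent. The difference was called in each of the 4 separate comparisons, at log2 2.65 and 2.73 against fresh CD4+ and DN cells (adjusted p = 0.00407 and 0.00603) at least 8.35-fold against cultured CD4+ cells (0.00143) and log2 3.13 against cultured DN cells (0.00349). It was not called for culture (adjusted p = 0.909). The separate calls were lost without fresh CD4+ replicate 2 (0.0703), fresh DN replicate 1 (0.0759) or 2 (0.0795), each in its own fresh comparison, and without cultured CD8+ replicate 2 against cultured DN cells (0.0565).

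Slc11a1 is also a gene of macrophages and neutrophils. Of 7 listed red pulp macrophage markers, 6 were measured and 4 were above the floor on at least 2 arrays. Their summed intensity was 1252 to 8161 on CD8+ arrays and 581 to 4085 on the others, of which Hmox1 made up 729 to 7279 and 311 to 2555. Cd5l and Mertk were below the floor on all arrays, and Adgre1, which encodes F4/80, was -31.3 to 50.5 on CD8+ arrays and 13.3 to 664 on the others. Hmox1 was called higher in CD8+ cells (log2 1.36, adjusted p = 0.0355) and Adgre1 lower (at least 1.5-fold, adjusted p = 0.00842). Vcam1 was 289 and 113 in fresh and 77.1 and 130 in cultured CD8+ cells and -1.1 to 94.6 on the others, and was not called (at least 1.61-fold, adjusted p = 0.055). Spic, a transcription factor of these macrophages, was 121 and 37.4 in fresh and 337 and 739 in cultured CD8+ cells and 13.3 to 1247 on the others (adjusted p = 0.431). Of 6 neutrophil markers, all measured, 2 were above the floor on at least 2 arrays, and their sum was 145 to 380.0 and 74.2 to 714. Their part in the result was not tested. The Slc11a1 promoter (chr1:74374953-74375252, plus strand) held a single match, to the PU.1-type site, which begins at -152.
Slc11a1: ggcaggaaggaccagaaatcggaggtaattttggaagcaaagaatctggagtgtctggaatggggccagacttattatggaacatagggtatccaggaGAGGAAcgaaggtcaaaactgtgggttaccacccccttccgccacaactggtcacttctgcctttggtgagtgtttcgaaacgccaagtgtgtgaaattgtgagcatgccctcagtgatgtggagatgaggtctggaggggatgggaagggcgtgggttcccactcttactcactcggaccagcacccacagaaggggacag

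Slc25a20 was the other metabolic carrier higher in CD8+ cells. With the values given above for culture, it was higher in 8 of 8 pairs (log2 1.28 ± 0.19, adjusted p = 0.00201). In fresh cells the differences from CD4+ and DN cells were 0.77 and 0.89 and were not called (adjusted p = 0.346 and 0.28), and in cultured cells they were 1.98 and 1.47 (0.00852 and 0.0435). The cultured call against CD4+ cells was lost without cultured CD8+ replicate 2 (0.108). Against DN cells it was lost without any 1 of the 4 arrays compared (0.157 to 0.322) or either fresh CD4+ array (0.0921 and 0.0915). Plasma membrane carriers of carnitine, its substrate, were not called, and stayed uncalled under most of the 18 alternatives. Slc22a5 was 76.7 to 138 on CD8+ arrays and 0.6 to 91.2 on the others (at least 1.22-fold higher, adjusted p = 0.0682; 0.0454 with the block, 0.00625 and 0.0273 without cultured CD4+ replicate 1 or 2, 0.00451 leaving out all 3 high-ratio arrays). Slc22a21 was 92.5 to 208 and 17.7 to 125 (at least 1.53-fold higher, adjusted p = 0.129; 0.0381 with the block, 0.0284 without cultured CD4+ replicate 1, 0.0248 without the 3 arrays).

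Slc12a7 and Slc12a4 both encode carriers that move potassium and chloride out of the cell, and they differed in opposite directions. Slc12a7 was 134 and 189 in fresh CD8+ cells, 85.2 and 84.5 in cultured ones and 23.2 to 82.3 on the other arrays, at least 1.25-fold higher (adjusted p = 0.0194). Slc12a4 was 6.6 and 52.4 in fresh and 73.3 and 54.4 in cultured CD8+ cells and 82.2 to 178 on the other arrays, at least 1.40-fold lower (adjusted p = 0.0158). Neither overlapped between CD8+ and CD8-negative arrays, and both lay close to the floor. The Slc12a4 call was lost without fresh CD8+ replicate 1 (0.0578) or cultured CD8+ replicate 1 (0.0551) or 2 (0.0913). That of Slc12a7 was lost without either fresh CD4+ array (0.0508 and 0.0542), fresh CD8+ replicate 2 (0.0892), fresh DN replicate 2 (0.0502) or either cultured CD8+ array (0.0878 and 0.0901). In the fresh comparison with CD4+ cells Slc12a7 was called (at least 1.68-fold, adjusted p = 0.0365), but not without any 1 of 9 arrays (0.0507 to 0.26).

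Slc12a2, Slc2a3 and Slc44a2, which fell in culture, were also lower in CD8+ cells. Slc12a2, the sodium, potassium and chloride carrier, was 40.9 to 282 on CD8+ arrays and 144 to 781 on the others (log2 -1.49 ± 0.26, adjusted p = 0.00507, lower in 8 of 8 pairs). Slc2a3 was 30.8 to 94 and 52.5 to 513 (at least 2.00-fold lower, adjusted p = 0.00465, 8 of 8 pairs). Its second probe set was not called (adjusted p = 0.0988). In the fresh comparison with CD4+ cells Slc2a3 was called (log2 -2.39, adjusted p = 0.0134), but not without fresh CD4+ replicate 1 (0.071) or 2 (0.208) or fresh CD8+ replicate 1 (0.116). Slc44a2 was 32.8 to 145 on CD8+ arrays and 79.8 to 558 on the others (at least 1.76-fold lower, adjusted p = 0.037, 8 of 8 pairs). That call was lost without either array of fresh CD4+ (0.0972 and 0.0552), fresh CD8+ (0.131 and 0.0593) or cultured CD8+ cells (0.0803 and 0.173), or replicate 1 of fresh or cultured DN cells (0.086 and 0.0662). It was also lost without the 3 arrays of high Gapdh ratio (0.0676).

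Further genes were not called, and stayed uncalled under most of the 18 alternatives. Slc38a2 was 223 to 268 on CD8+ arrays and 199 to 515 on the others (log2 -0.74 ± 0.20, adjusted p = 0.0514). It was called with the block (0.0351), when cultured CD4+ replicate 1 (0.00978) or 2 (0.0369) or all 3 high-ratio arrays (0.024) were dropped. Slc29a1 was 52.4 to 251 and 74.2 to 589 (log2 -1.15, adjusted p = 0.063; 0.0145 without fresh CD8+ replicate 2). Slc44a1 had a log2 difference of -0.79 (adjusted p = 0.127), which passed without fresh CD8+ replicate 1 (0.0422), and Slc35b1 one of 0.57 (adjusted p = 0.275), which passed without cultured CD4+ replicate 2 (0.0388).

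**Figure D4:**
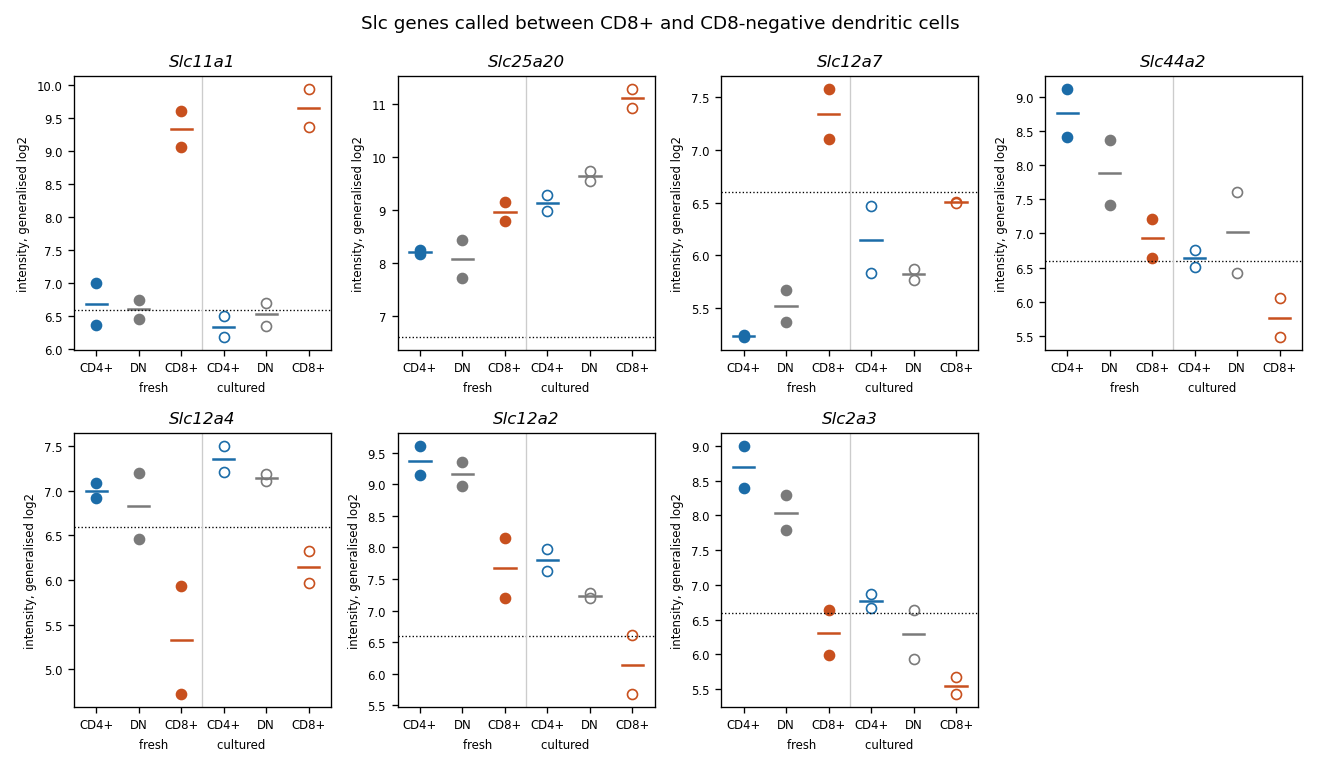
Intensity on the generalised log2 scale (vertical axis) of the 7 Slc genes called between CD8+ and CD8-negative cells, by group (horizontal axis). Circles are arrays (filled fresh, open cultured), short lines are the mean of 2 arrays, and the dotted line is the detection floor. Slc11a1 stands apart in CD8+ cells in both states, and Slc25a20 is highest in cultured CD8+ cells.

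In the separate comparisons, Slc calls were few. Fresh CD8+ cells had 2 genes higher and 1 lower than CD4+ cells (4.23%, where 1.98% of all probe sets were called, 1.02% higher and 0.958% lower). They had 1 higher than DN cells (1.41%, where 1.43% were called, 0.617% higher and 0.812% lower), or 2 called against DN cells with the block, where 1.88% of all were. Without either fresh DN array that count was 0 (0.179% and 0.13% of all), and without fresh CD8+ replicate 2 or either cultured CD4+ array it was 2 (1.57% to 2% of all). The fresh count against CD4+ cells was 1 and 0 without fresh CD4+ replicate 1 or 2 and 1 without fresh CD8+ replicate 1 (0.487%, 0.422% and 0.844% of all). Cultured CD8+ cells had 2 genes higher than CD4+ (2.82%, where 2.29% of all probe sets were called, 1.41% higher and 0.877% lower). They had 2 higher than DN cells (2.82%, where 1.3% were called, 0.649% in each direction). The first count was 6 without cultured CD4+ replicate 2 (8.95% of all) and 1 without cultured CD8+ replicate 2 (0.455%). The second was 0 without cultured CD8+ replicate 2 (0.0812% of all) and 1 without either fresh CD4+ array, cultured CD8+ replicate 1 or either cultured DN array (0.162% to 0.812%). Between DN and CD4+ cells limma called 0 Slc genes in either state, with 0 fresh and 2 cultured ones at an unadjusted p under 0.05, where 0% of all probe sets were called, and 2 cultured ones (2.82%) were called without cultured CD4+ replicate 2, where 3.23% of all probe sets were.

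**Figure D5:**
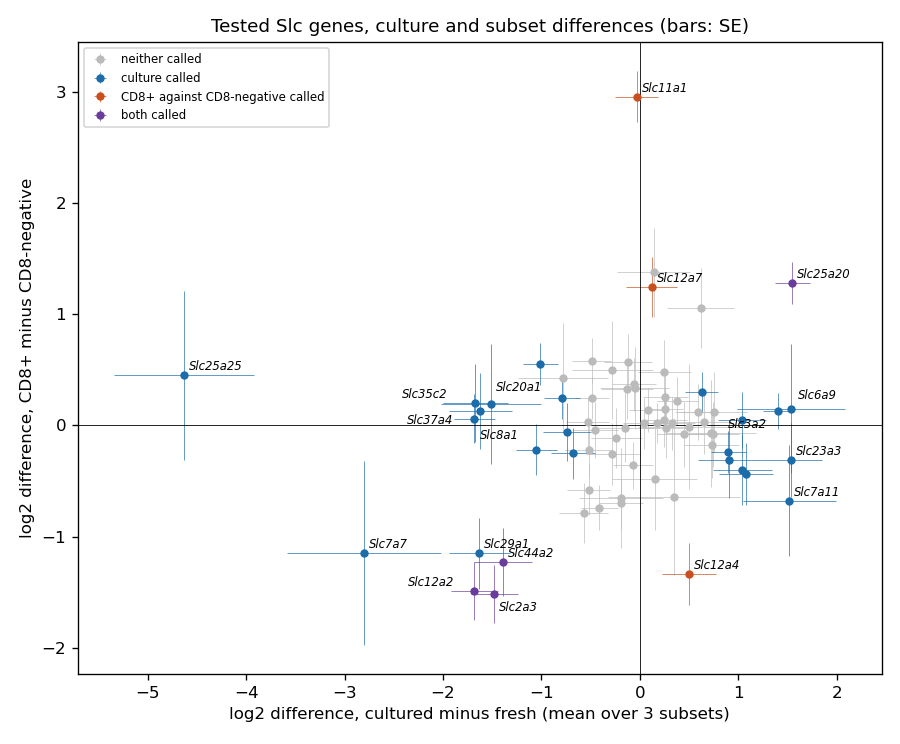
Log2 difference of the 71 tested Slc genes after culture (horizontal axis, mean over 3 subsets) against that between CD8+ and CD8-negative cells (vertical axis), with bars of 1 SE and colours for the calls. Slc25a20 was called higher in both comparisons, and Slc2a3, Slc12a2 and Slc44a2 were called lower in both. Differences of genes with values below 0, such as Slc25a25, are inflated on this scale.

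Partners of these transporters were listed as 31 genes, of which 25 were measured and 23 tested. After culture 9 rose and 3 fell (39.3% of all probe sets were called), with a median log2 difference of 0.48. Gclc and Gclm, which encode both subunits of the enzyme that starts glutathione synthesis from cysteine, rose at least 2.38-fold and 3.41-fold (adjusted p = 0.00138 and 0.00191). The metal-binding proteins Mt1 and Mt2 rose by log2 1.40 and at least 4.13-fold (0.00236 and 0.000551) and the iron store Fth1 by log2 1.28 (5.78e-05). Asns, which makes asparagine and is a target of the amino acid response, rose by log2 0.90 (0.0358). Atf4, the factor of that response, had a log2 difference of 0.48 (0.0573) and was not called. Ddit3, listed with them, was not called either (log2 -0.33, 0.55), and Trib3 was below the floor. Atp1b3, a sodium pump subunit, and Atp6v1a and Atp6v1b2, subunits of the proton pump, rose by log2 0.76, 0.58 and 0.71 (0.00274, 0.0104 and 0.00877). Irak1 and Abcg1 fell (log2 -0.80 and -2.16; 0.0165 and 0.0128), as did Abcb1a, by at least 1.12-fold (0.0147). Bsg, the chaperone of lactate transporters, and Ldha were not called (log2 -0.25 and -0.26; 0.542 and 0.473). In CD8+ cells, Gclc (at least 4.98-fold, 0.00114), Mt1 (log2 1.45, 0.0118) and Atp1b3 (log2 1.02, 0.00315) were higher and the drug efflux pump gene Abcb1a was lower (at least 1.45-fold, 0.000191).

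Of 29 Slc genes with several probe sets, 9 had another tested probe set. The additional probe sets of Slc11a2 (higher, adjusted p = 0.0184) and of Slc30a5, a zinc transporter (at least 1.40-fold lower, 0.0268), were called after culture where the ones used were not (0.0681 and 0.0716). Those of Slc25a1, Slc31a1 and Slc25a5 were not called either after culture (adjusted p = 0.53, 0.652, 0.363 and 0.525, the last pair for Slc25a5). Symbols of 5 tested genes, Slc6a4, Slc19a1, Slc25a51, Slc30a5 and Slc39a4, rest on probe sets of a type that can take signal from related sequences.

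Markers of other cells were measured on the same arrays. Of 6 listed T cell markers, 5 were measured and 1 was above the floor on at least 2 arrays, and of 5 NK markers 3 were measured and 0 were. B cell markers had 5 of 6 measured above it, with summed intensities of 572 to 1316 on fresh and 719 to 1601 on cultured arrays, and 691 to 1316 on CD8+ and 572 to 1601 on CD8-negative ones. After culture Blk and Pax5 were called higher (log2 1.12 and 0.75, adjusted p = 0.014 and 0.0474) and Cd79b lower (at least 1.85-fold, adjusted p = 0.0224), while Ms4a1 and Cd79a were not called (0.978 and 0.708). Blk was also lower in CD8+ cells (log2 -1.53, adjusted p = 0.0158). The macrophage markers named beside Slc11a1 summed to 581 to 1549 on fresh and 1233 to 8161 on cultured arrays. Of these, Spic was 13.3 to 121 fresh and 252 to 1247 cultured, with no overlap (at least 5.39-fold higher, adjusted p = 2.09e-05). Hmox1 was also higher after culture (log2 1.81, adjusted p = 0.0013) and Adgre1 lower (at least 1.72-fold, adjusted p = 0.00766), while Vcam1 was not called (0.212). Neutrophil markers summed to 74.2 to 380.0 on fresh and 152 to 714 on cultured arrays, and Camp and Elane were not called for culture (0.291 and 0.115). Red cell markers summed to 216 to 1150 on fresh and 199 to 3041 on cultured arrays, the highest on replicate 1 of cultured CD4+ cells, with Alas2 and Epb42 below the floor on all. Their part in the results was not tested.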

How the data were processed

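Per the labels, the deposited intensity values are Average Difference intensities of an oligonucleotide array, globally scaled by the authors; the labels name no software. The table held 12488 probe sets, of which 66 controls were left out. The platform annotation gave 1 symbol to 10833 of the others, several to 396 (not named) and none to 1193. RefSeq (GRCm38.p6), matched by Entrez identifier, changed 0 symbols.

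The scale was log2((x + sqrt(x² + c²)) / 2), with c = 45.69, the typical (median) noise of an array, taken as the root mean square of its values below 0. The floor was 2 times c. limma 3.58.1 in R 4.3.3 fitted 1 mean per group over all 12 arrays, with eBayes (trend, robust; 6 residual and a median of 5.09 prior degrees of freedom). Figures used Python 3.11.15 and matplotlib 3.10.9. Precision is limited by 2 arrays per group.

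Arrays of the same experiment number deviated together from their group means (correlations 0.106 to 0.444 over 15 pairs of arrays). The number was therefore taken to pair the samples. The main fit left that pairing out, so its p-values ignore it. In every group noise was higher on replicate 1 than on replicate 2, and all 3 arrays of high Gapdh ratio were replicate 1. A shared experiment and array quality can therefore not be told apart here. The experiment number comes from the titles. The fit with it as a block was an alternative, beside the offset at 0.5 or 2 times c, no filter, quantile normalization, omitting together the 3 arrays whose Gapdh ratio was high and leaving out each array.

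Genes named were those called in any comparison, up to 4 of highest mean per substrate class, the 5 of smallest p in each direction for both main comparisons, and 19 transporters listed in advance, of which Slc15a3, Slc16a3 and Slc40a1 were not analysed here. The members and lists were chosen with earlier results of these data known.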

Additional observations from a re-analysis of the deposited data

How the results depend on the processing

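Of the 26 Slc genes called for culture, 18 kept their call under all 18 alternatives, and of the 7 called between CD8+ and CD8-negative cells 4 did; 0 changed sign. With the experiment number as a replicate block, the pairing by experiment gave 24 genes for culture in CD4+ cells, 11 in DN cells and 2 for fresh CD8+ against DN cells (29%, 16.9% and 1.88% of all probe sets); it moved no other count by over 1.5 times. Without the 3 arrays of high Gapdh ratio, 14 genes were called for culture in CD8+ and 10 in DN cells, 11 for CD8+ against CD8-negative cells, 2 for fresh CD8+ against DN cells and 6 for cultured CD8+ against CD4+ cells (16.1%, 13.2%, 10.2%, 2.52% and 5.15% of all). The offset at 2 times its value gave 3 for culture in CD8+ cells (8.69% of all). For cultured CD8+ against DN cells, the offset at 0.5 times, no filter and quantile normalization each gave 1 (1.12%, 0.467% and 1.35% of all). The cause was not tested. With no filter, limma no longer called Slc25a17, Slc20a1, Slc22a12 and Slc6a9 for culture (adjusted p = 0.0522, 0.0518, 0.0638 and 0.0617). Nor was Slc44a2 then called between CD8+ and CD8-negative cells (0.0692). The offset at 0.5 times ended the culture calls of Slc20a1 (0.0518) and Slc6a9 (0.0816). Leaving out 1 array gave 19 to 38 genes for the mean culture effect, 1 to 27 for culture in CD4+, 1 to 8 in CD8+ and 0 to 12 in DN cells. It gave 4 to 10 for CD8+ against CD8-negative cells, 0 to 4 and 0 to 2 for fresh CD8+ against CD4+ and DN cells, 1 to 6 and 0 to 2 for the cultured comparisons, 0 to 2 for cultured DN against CD4+ cells, and 0 to 1 for the culture response of CD8+ against CD4+ cells. In these fits the share of all probe sets that were called moved as well, so the ranges are not particular to Slc genes. Leaving out an array leaves 1 in its group, which is assumed to vary like the other groups. Values near or below the floor give only bounds. Where alternatives are cited beside a gene not called in a main comparison, they are among those under which it passed. Such genes stayed uncalled under most of the 18 alternatives.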
